A study of Mus musculus with 12 samples.

Results

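The livers of 3 YAPKO mice were compared with those of 3 wild-type (WT) mice on the C57BL/6 background, which are 6 of the 12 samples of the series. The members were chosen by their labelled genotype and strain alone: LM74, LM189 and LM191 carried the YAP1 knockout, and LM75, LM192 and LM193 were WT. YAPKO mice carried *Foxa3*-Cre, *Yap1* fl/fl and the reporter ROSA-stop fl/fl-EYFP: both floxed copies of *Yap1* were deleted by a Cre recombinase expressed from *Foxa3*, a gene active in the foregut endoderm from which hepatocytes and bile duct cells descend, and a Cre-dependent EYFP reporter marked the recombined cells. All 6 mice were female and aged 3 to 4 months, the WT mice being littermate controls, and RNA was taken from whole liver without sorting. Macrophages, endothelial cells and stellate cells do not descend from the foregut endoderm, so the Cre was not designed to delete *Yap1* in them.

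YAP1 is a transcriptional coactivator of the Hippo pathway. The kinases MST1, MST2, LATS1 and LATS2 phosphorylate it and hold it in the cytoplasm, and when they are inactive it enters the nucleus and binds TEAD proteins, which bring it to DNA. In the liver it is known for its part in organ size and in the formation of bile ducts, and its loss in the foregut endoderm is known to impair the intrahepatic bile ducts and to cause cholestasis, the retention of bile in the liver. Hepatocytes make bile acids from cholesterol, take them up again from portal blood at the sinusoidal membrane and export them into bile at the canalicular membrane.

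Levels are given as TPM, the share of a gene in the transcripts of a library after correction for its length. Every library summed to 1000000, so the values hold no record of depth, and precision can be judged only from the spread between mice. *Alb*, which encodes albumin, was the most abundant transcript in every mouse, and all 12 listed hepatocyte markers passed the minimum level. Each mouse showed 14540 to 14969 genes above 0 TPM. On the log scale, pairs of mice of the same group correlated with r of 0.978 to 0.990 across genes and pairs of different groups with r of 0.905 to 0.918, given as a description of the libraries. The composition of the RNA differed: the 10 most abundant genes took 25.2 to 26.3 percent of all TPM in WT livers and 22.2 to 23.2 percent in YAPKO livers. Because TPM must sum to a constant, a smaller share of such genes raises the TPM of others without any change of their own. The libraries were scaled by factors of 0.852 to 0.913 in WT and 1.09 to 1.22 in YAPKO mice so that the bulk of genes was level. These factors differ between the groups by more than the share of the 10 most abundant genes does. The source of the remaining difference was not tested.

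Of 11704 genes that reached 1 TPM in 3 or more of the 6 mice, 2202 were higher in YAPKO than in WT livers (18.8 percent) and 2093 were lower (17.9 percent) at an adjusted p under 0.05. Changes over 2-fold were more often rises, with 931 genes higher (7.95 percent) and 484 lower (4.14 percent). Values in parentheses after a gene are its log2 fold change with the moderated standard error. This error pools the spread of both groups and is drawn towards that of genes of like level. The fold change is the YAPKO minus the WT mean of log2(scaled TPM + 1), relative to the bulk of genes, and understates the change of genes near 1 TPM. TPM values are as deposited. Without the scaling the median log2 fold change of all tested genes moved from -0.04 to 0.28, and the calls split into 4390 higher and 834 lower, so 84 percent of calls were higher against 51.3 percent. The counts of a gene group are therefore given with and without scaling. They are to be read beside the shares of all tested genes, 18.8 and 17.9 percent with scaling and 4390 and 834 of 11704 genes without. A single call that is lost or gained without scaling, or without 1 mouse where the gene was still tested, is named beside the gene. A gene under 1 TPM in every WT mouse was tested only if it reached 1 TPM in every YAPKO mouse. Counts in lists that are low in WT livers therefore lean to rises. In deposited TPM such a gene could only lie higher in YAPKO mice, so the filter set its direction and its p-value does not bear on it. This holds for *Slc51b*, *Afp*, *Sult1e1*, *Asns*, *Gpx2*, *Mki67*, *Cldn7*, *Timp1*, *Gpnmb*, *Sprr1a* and *Gipc2*, among others. The groups did not overlap in deposited TPM for 6642 genes, 56.7 percent of those tested, YAPKO being above WT in 47.5 percent of tested genes and below in 9.29 percent.

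**Figure D1:**
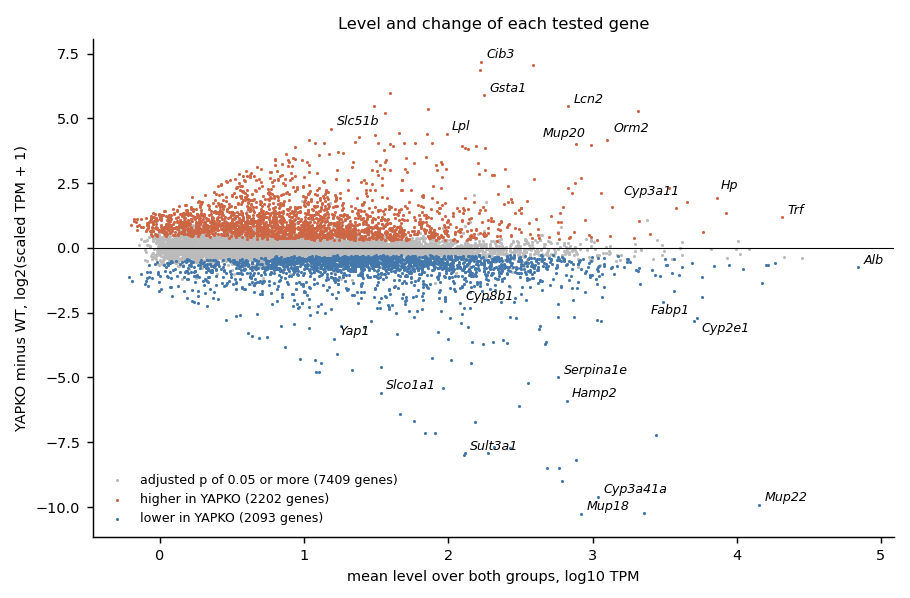
Mean level over both groups (x axis, log10 TPM) against the change in YAPKO livers (y axis, difference of log2(scaled TPM + 1)) for the 11704 tested genes; each point is a gene, colored by its call. The 2202 higher and 2093 lower genes span the whole range of levels, and the lowest points are major urinary protein, cytochrome P450 and sulfotransferase genes.

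*Yap1* itself (ENSMUSG00000053110, chr9:7931999-8004596, minus strand, GRCm38.p6) was the check of the genotype. It stood at 30.5, 30.4 and 28.2 TPM in the WT mice LM75, LM192 and LM193 and at 3.72, 1.93 and 1.67 TPM in the YAPKO mice LM74, LM189 and LM191, the order in which values by mouse are given throughout. No YAPKO mouse reached the WT range, the log2 fold change was -3.51 ± 0.18 (adjusted p = 8.6e-06), and LM74 kept the most transcript. Since whole liver was sequenced, fewer cells of a type and less RNA per cell cannot be told apart, here and in every result on a gene of 1 cell type.

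Of the 20 tested genes of the Hippo pathway and its DNA-binding partners, 5 rose (25 percent) and 4, *Yap1* included, fell (20 percent). These shares are near the 18.8 and 17.9 percent of all tested genes. Without scaling 7 rose and 1 fell. *Wwtr1*, which encodes the paralogous coactivator TAZ, went from 6.83, 6.26 and 6.28 to 16.7, 13.3 and 13.7 TPM (0.73 ± 0.11, adjusted p = 0.0019), with no overlap. *Tead1*, the TEAD factor that rose, was at 2.82 ± 0.0147 TPM in WT and 5.68 ± 0.787 TPM in YAPKO livers (mean ± SD, n = 3 throughout) (0.51 ± 0.12, adjusted p = 0.012). *Tead3* (-0.14 ± 0.14) and *Tead2* (-0.48 ± 0.21) did not pass the test, and *Tead4* was below the minimum level. The largest rise was in *Amot* (1.19 ± 0.18), a junctional protein that binds YAP1, and *Frmd6*, which acts upstream of the kinases, rose too (0.70 ± 0.14). *Amotl2* (-0.77 ± 0.22), *Wwc1* (-0.73 ± 0.18) and *Nf2* (-0.43 ± 0.14), which encode another angiomotin and upstream activators of LATS, fell, but their deposited TPM overlapped between the groups and the calls were lost without scaling. The call of *Amotl2* was also lost without LM75, LM192, LM193 or LM74 (adjusted p = 0.053 to 0.084), that of *Wwc1* without LM192, LM193 or LM191 (adjusted p = 0.053 to 0.055) and that of *Nf2* without LM192, LM193, LM74, LM189 or LM191 (adjusted p = 0.063 to 0.16). The kinase genes *Stk3*, *Stk4*, *Lats1* and *Lats2* had log2 fold changes between -0.08 and 0.17, and were not past the threshold, though *Stk3* (0.48, adjusted p = 0.026) and *Stk4* (0.45, adjusted p = 0.027) rose without scaling.

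Genes often used as a readout of YAP and TAZ did not move as a block: 6 of 19 rose, 3 fell and 10 did not pass the test, against 18.8 and 17.9 percent of all genes, and the median log2 fold change was 0.16. Without scaling 8 rose and 2 fell. *Axl*, a receptor tyrosine kinase, went from 11.2, 11.2 and 9.20 to 44.6, 33.4 and 30.7 TPM (1.34 ± 0.14, adjusted p = 0.00025). *Ccdc80*, a secreted matrix protein, went from 5.09, 6.13 and 4.94 to 35.5, 29.5 and 24.5 TPM (1.93 ± 0.13), and *Myof*, a membrane repair protein, from 0.567 ± 0.264 to 3.92 ± 1.28 TPM (1.43 ± 0.20). All YAPKO mice were above all WT mice for these genes.

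The matricellular genes *Ccn1* (1.98 ± 0.42) and *Ccn2* (1.24 ± 0.34) also rose, but unevenly, with *Ccn1* at 28.5, 92.2 and 56.6 TPM in the YAPKO mice against 12.998, 9.82 and 7.40 TPM in WT mice. The call of *Ccn2* was lost without LM192, LM193, LM189 or LM191 (adjusted p = 0.062 to 0.079). The fallen members were *Igfbp3*, a carrier of insulin-like growth factors, from 19.3, 18.6 and 10.1 to 4.87, 7.14 and 2.99 TPM (-1.83 ± 0.31, adjusted p = 0.0028), *F3*, the tissue factor that starts coagulation (-0.99 ± 0.21), and *Amotl2*. *Ankrd1*, *Fjx1* and *Ptpn14* were among the 4 members below the minimum level. The summed TPM of the 23 listed genes was 140.2, 138 and 125 in WT and 226, 331 and 244 in YAPKO mice, and LM189 was the highest.

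To show where TEAD proteins could bind, the 250 bases before the RefSeq start of *Ccn1* (chr3:145649986-145650235) and *Axl* (chr7:25788734-25788983), both on the minus strand of GRCm38.p6, are printed 5′ to 3′, with the TEAD letters GGAATG or their reverse complement in capitals. In *Ccn1* the match is on the opposite strand and begins 103 bases before the start, and in *Axl* it is on the strand of the gene, 233 bases before it. These letters occurred on either strand in such windows of 15.3 percent of the genes that rose, 13.3 percent of those that fell and 12 percent of the other tested genes, and in 14.4 percent of all 27025 genes with a sequence.
Ccn1: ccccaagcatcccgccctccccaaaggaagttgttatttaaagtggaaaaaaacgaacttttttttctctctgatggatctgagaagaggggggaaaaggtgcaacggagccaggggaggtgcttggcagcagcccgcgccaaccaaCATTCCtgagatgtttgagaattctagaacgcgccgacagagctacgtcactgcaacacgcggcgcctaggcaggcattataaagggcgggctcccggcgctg
Axl: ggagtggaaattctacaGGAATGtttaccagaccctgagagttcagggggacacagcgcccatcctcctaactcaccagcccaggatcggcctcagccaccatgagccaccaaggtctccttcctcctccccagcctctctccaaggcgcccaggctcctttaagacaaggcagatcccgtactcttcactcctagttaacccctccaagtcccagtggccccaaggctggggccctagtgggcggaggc

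Bile acid synthesis genes were lower at several steps. Of 16 tested genes 9 fell and 0 rose, with a median log2 fold change of -0.72; without scaling 7 fell and 3 rose. The largest fall was in *Cyp8b1*, the sterol 12α-hydroxylase that directs synthesis to cholic acid, from 273, 256 and 54.8 to 38.5, 47.3 and 49.96 TPM (-2.13 ± 0.55, adjusted p = 0.018). *Cyp7b1*, the oxysterol hydroxylase of the acidic pathway, went from 69.4, 49.2 and 37.0 to 13.3, 16.5 and 13.2 TPM (-2.09 ± 0.23). The groups did not overlap for either gene, but the WT mouse LM193 was close to the YAPKO mice in *Cyp8b1*, and its call was lost without LM192 or LM74 (adjusted p = 0.061 to 0.062) and with a robust estimate of the spread (adjusted p = 0.0644).

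*Cyp7a1*, the rate-limiting enzyme of the classical pathway, was at 94.7, 240.1 and 84.8 TPM in WT and 116, 44.2 and 99.7 TPM in YAPKO mice. The groups overlapped and the log2 fold change of -0.99 ± 0.43 did not pass the test (adjusted p = 0.11). *Slc27a2* (-1.47 ± 0.10) and *Slc27a5* (-1.09 ± 0.15), which activate bile acids and fatty acids with coenzyme A, *Cyp39a1* (-1.40 ± 0.14) and *Cyp27a1* (-0.68 ± 0.18) fell without overlap, the last only with scaling. *Baat*, which conjugates bile acids to taurine, was at 199.6 ± 8.09 and 243 ± 12.2 TPM and did not pass the test (-0.07 ± 0.11), but rose without scaling (0.28, adjusted p = 0.026). *Cyp2c70*, which makes the muricholic acids of mice, was not past the threshold (-0.11 ± 0.12). *Csad*, of the amino acid list, the enzyme that makes the taurine precursor hypotaurine, rose from 96.0, 43.4 and 36.8 to 193, 256 and 279 TPM (1.79 ± 0.36, adjusted p = 0.006).

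The *Cyp8b1* window of 250 bases (chr9:121916306-121916555, minus strand, GRCm38.p6) is printed because it holds the letters CAAAGTCCA, a form of the site of the hepatocyte factor HNF4A, 67 bases before the start. The letters were found on either strand in the windows of 0.958 percent of the genes that fell, 0.705 percent of those that rose and 0.455 percent of the other tested genes.
Cyp8b1: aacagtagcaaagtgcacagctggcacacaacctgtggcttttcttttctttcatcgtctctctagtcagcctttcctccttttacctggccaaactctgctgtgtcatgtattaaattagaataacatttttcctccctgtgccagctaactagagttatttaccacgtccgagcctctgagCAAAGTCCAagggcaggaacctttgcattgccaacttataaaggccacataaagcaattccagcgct

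Uptake carriers of the sinusoidal membrane fell for the most part: 8 of 10 tested genes were lower and 0 higher, the same counts with and without scaling. *Slc10a1*, the sodium-dependent bile salt carrier NTCP, went from 525, 536 and 507 to 151, 149 and 198 TPM (-2.02 ± 0.14, adjusted p = 4.4e-05). *Slco1b2* (-1.36 ± 0.11) and *Slco1a1* (-5.59 ± 0.33), carriers of organic anions, fell as well, the latter from 75.7, 61.0 and 64.5 to 2.32, 0.113 and 0.289 TPM. *Slco1a4*, another member of this family, did not pass the test at 78.5 ± 5.75 TPM in WT and 69.9 ± 21.5 TPM in YAPKO livers, and passed as a fall without LM191 (adjusted p = 0.02). The summed TPM of the list was 1895, 1878 and 1856 in WT and 768, 856 and 931 in YAPKO mice, and every YAPKO mouse lay below every WT mouse.

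Exporters of the same membrane rose more often than they fell, 4 of 6 against 1, with the same counts without scaling. *Slc51b* (ENSMUSG00000053862, chr9:65412714-65422955, minus strand), the β subunit of the bile acid exporter OSTα-OSTβ, was at 0, 0.299 and 0.16 TPM in WT and 35.9, 28.7 and 27.6 TPM in YAPKO mice (4.59 ± 0.15, adjusted p = 1.0e-06). Being under 1 TPM in every WT mouse, *Slc51b* was tested through its YAPKO values alone. Its partner gene *Slc51a* stayed below the minimum level, at 0.567, 0.081 and 0.303 TPM in WT and 0.0486, 0.246 and 0.244 TPM in YAPKO mice. *Abcc3* (MRP3) rose from 129 ± 19.99 to 247 ± 41.7 TPM (0.57 ± 0.16), a call lost without LM75, LM192, LM189 or LM191 (adjusted p = 0.058 to 0.087), and *Abcc6* fell (-0.77 ± 0.16). *Slc10a2*, the apical bile acid carrier of bile duct cells, rose from 4.75, 5.72 and 5.13 to 25.0, 26.7 and 20.1 TPM (1.68 ± 0.13).

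At the canalicular membrane 4 of 8 exporters rose and 3 fell, against 5 and 2 without scaling. *Abcb4*, the phosphatidylcholine floppase, rose from 105, 97.9 and 123 to 292, 268 and 295 TPM (1.03 ± 0.12, adjusted p = 0.00046). *Abcg5* (-1.41 ± 0.12) and *Abcg8* (-1.57 ± 0.15), which form the sterol exporter, fell from 92.4 ± 13.1 to 43.7 ± 1.39 and from 54.3 ± 7.77 to 22.6 ± 1.26 TPM. *Abcb11*, the bile salt export pump, was at 232, 123 and 177 TPM in WT and 293, 297 and 261 TPM in YAPKO mice and did not pass the test (0.36 ± 0.23, adjusted p = 0.25), but it rose without scaling (0.72, adjusted p = 0.022) and without LM75 (adjusted p = 0.036). The multidrug exporter *Abcb1a* (0.98 ± 0.17) and *Atp8b1*, a phospholipid flippase of the canaliculus (0.57 ± 0.10), rose.

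Of the 8 tested genes that govern bile acids, 4 fell and 0 rose, against 2 and 1 without scaling. *Nr1i3*, the constitutive androstane receptor CAR, fell from 119.6, 224 and 279.9 to 45.5, 41.0 and 64.4 TPM (-2.32 ± 0.30, adjusted p = 0.00074) and *Nr1h4*, the bile acid receptor FXR, from 97.3, 128 and 126 to 73.0, 60.2 and 75.8 TPM (-1.09 ± 0.13). Their groups did not overlap. *Nr0b2*, the FXR target SHP, did not pass the test at 54.2 ± 11.1 and 47.5 ± 9.34 TPM (-0.53 ± 0.20, adjusted p = 0.068), but fell without LM75 or LM191 (adjusted p = 0.037 to 0.038) and in a fit that blocked mice of near animal numbers (adjusted p = 0.0105). *Klb*, a coreceptor for fibroblast growth factors, fell (-0.77 ± 0.20), with overlap, and its call was lost without scaling or without LM193 (adjusted p = 0.055). *Fgfr4*, the receptor it serves (0.26 ± 0.12), and *Nr1i2*, the xenobiotic receptor PXR (0.11 ± 0.21), were not past the threshold, though *Fgfr4* rose without scaling (0.61, adjusted p = 0.0017) and without LM74 (adjusted p = 0.04).

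Hepatocyte transcription factors as a list held 2 rises and 10 falls among 24 tested genes, and 4 and 6 without scaling. *Hnf4a*, a master factor of hepatocytes, was at 165, 233 and 211 TPM in WT and 226, 246 and 268 TPM in YAPKO mice, which overlapped (-0.07 ± 0.14, adjusted p = 0.75). *Onecut1* (HNF6) fell from 14.9 ± 1.46 to 5.27 ± 2.08 TPM (-1.71 ± 0.19), *Ppara*, the receptor that drives fatty acid oxidation, from 43.5 ± 5.66 to 18.4 ± 3.19 TPM (-1.55 ± 0.13), and *Cebpa* from 407 ± 65.9 to 273 ± 51.7 TPM (-0.94 ± 0.16). *Gata6* (0.83 ± 0.15) and *Foxa3* (0.69 ± 0.20), the gene whose promoter drives the Cre, rose, and the call of *Foxa3* was lost without LM74, LM189 or LM191 (adjusted p = 0.052 to 0.097).

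**Figure D2:**
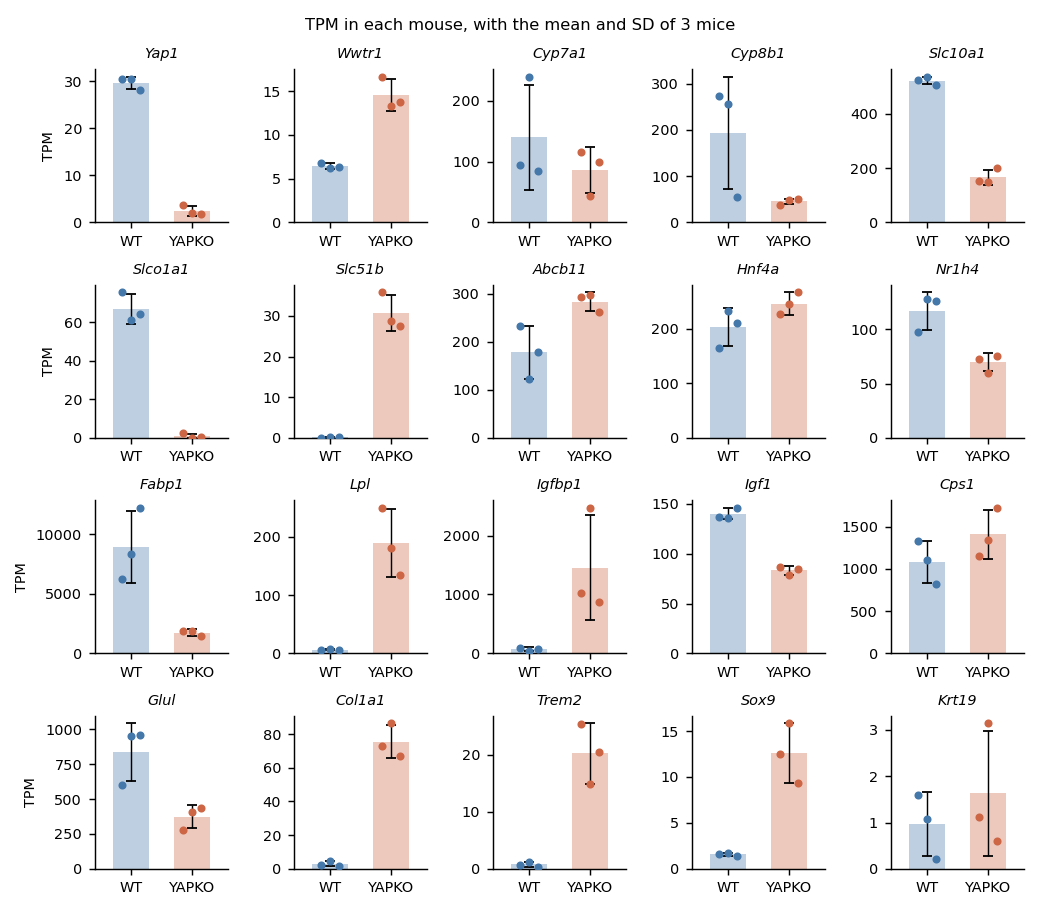
TPM (y axis, linear, from 0) of 20 genes in each mouse, with bars for the mean and error bars for the SD of 3 mice; blue is WT and orange is YAPKO. *Yap1*, *Cyp8b1*, *Slc10a1* and *Fabp1* are lower in every YAPKO mouse, *Slc51b*, *Lpl*, *Igfbp1* and *Col1a1* are higher in every one, and *Cyp7a1*, *Hnf4a*, *Cps1* and *Krt19* overlap.

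Cytochromes P450 of families 1 to 4 were mostly lower. Of 46 tested genes of the list, which includes *Por*, their electron donor, 38 fell and 5 rose, with a median log2 fold change of -1.44, and 32 fell and 5 rose without scaling. Their summed TPM was 27882, 31376 and 34409.7 in WT and 15835, 17033 and 17609.8 in YAPKO mice. *Cyp2e1*, the pericentral ethanol oxidase, had the largest loss of TPM among them, from 7403, 9188 and 9164 to 1609, 1336 and 1693 TPM (-2.83 ± 0.14, adjusted p = 6.4e-06). *Por* overlapped between the groups and did not pass the test (-0.69 ± 0.27, adjusted p = 0.083), but fell without LM191 (adjusted p = 0.0091) and with the block for near animal numbers (adjusted p = 0.0271).

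*Cyp2f2*, a periportal enzyme, went from 921, 730.3 and 917 to 70.5, 92.9 and 82.7 TPM (-3.73 ± 0.17). *Cyp3a41a* fell furthest, from 1839, 2516 and 2234 to 1.23, 3.97 and 2.53 TPM (-9.62 ± 0.27), and *Cyp2c69* (-8.18 ± 0.30), *Cyp3a44* (-7.98 ± 0.14), *Cyp3a16* (-7.15 ± 0.19) and *Cyp2b13* (-6.73 ± 0.27) came next. Near-identical copies share reads in these families: 25 of the 46 tested genes had a transcript of another gene at 90 percent identity or more over at least 30 percent of their length, so the value of a single member of the 2b, 2c and 3a clusters is uncertain. The rising genes were *Cyp2c55* (3.37 ± 0.24), *Cyp3a11* (1.76 ± 0.19), *Cyp2d9* (1.72 ± 0.34), *Cyp3a59* (0.85 ± 0.25) and *Cyp2j6* (0.31 ± 0.10). The calls of *Cyp3a59* and *Cyp2j6* were lost without LM192, LM193, LM189 or LM191 (adjusted p = 0.06 to 0.096) and without LM75, LM192, LM193, LM189 or LM191 (adjusted p = 0.063 to 0.16). *Cyp3a11*, the main inducible 3a enzyme, reached 7373, 7492 and 7130.1 TPM from 1826, 1301 and 2032 TPM.

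Conjugating enzymes moved in both directions. Over the list 17 of 52 rose and 30 fell, and 19 and 23 without scaling. Of the 52 tested genes 19 have near-identical copies that can share reads, *Gsta1*, *Gstp1*, *Sult3a1* and *Ugt1a1* among them, so their single values are uncertain. Several glutathione S-transferases rose: *Gsta1* from 2.48, 3.9995 and 4.79 to 319, 445 and 281 TPM (5.89 ± 0.23, adjusted p = 2.6e-06), *Gstm3* from 82.3, 65.6 and 95.5 to 4207, 4001 and 3941 TPM (5.28 ± 0.15), *Gstm1* by 1.55, *Gstp1* by 1.57 and *Gsta4* by 1.45 on the log2 scale. Within the same family *Gsta3* (-1.01 ± 0.13), *Gstt3* (-1.30 ± 0.19) and *Gstz1* (-0.80 ± 0.11) fell.

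Among the sulfotransferases, *Sult3a1* went from 244, 274 and 263 to 0.66, 0 and 0.184 TPM (-7.92 ± 0.16) and *Sult2a8*, a bile acid sulfotransferase, from 507, 369 and 369 to 2.70, 1.06 and 0.833 TPM (-7.70 ± 0.24), whereas *Sult1e1*, the estrogen sulfotransferase, rose from 0.276, 0.768 and 0 to 3.58, 4.37 and 5.40 TPM (1.86 ± 0.25). *Ugt1a1*, which conjugates bilirubin, fell from 894 ± 125 to 481 ± 7.54 TPM (-1.24 ± 0.12, adjusted p = 0.00019), but 7 other *Ugt1a* genes are near copies that can share its reads. *Ephx1*, the microsomal epoxide hydrolase, rose from 276 ± 33.7 to 912 ± 123 TPM (1.36 ± 0.17).

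Major urinary proteins, small lipocalins that the liver secretes and that leave with the urine, were lower in YAPKO livers with 1 exception among the tested genes. The 22 listed genes summed to 58773, 42776 and 33156 TPM in WT mice, 4.49 percent of all TPM on average, and to 1353, 2683 and 1896 TPM in YAPKO mice, 0.198 percent. Of 20 tested genes 19 fell, with and without scaling. All of the tested genes have near-identical copies that can share reads, so how the loss divides between them is uncertain. *Mup22* fell from 36528, 27234 and 21655 to 61.7, 33.3 and 22.4 TPM and *Mup3* from 5477, 5113 and 5687 to 37.1, 55.0 and 47.7 TPM (-7.20 ± 0.18). The member that rose was *Mup20*, darcin, from 97.4, 70.3 and 97.6 to 1228, 2581 and 1815 TPM (3.98 ± 0.30, adjusted p = 5.4e-05), and it then held most of the list's TPM.

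Secreted plasma proteins overlapped between the groups in their summed TPM, at 174841, 187528 and 179724 in WT and 183615, 173613 and 190934 in YAPKO mice. *Alb* was the largest member of this sum. Of 48 tested genes 7 rose and 20 fell relative to the bulk of genes, but 15 and 12 did without scaling and 15 and 11 with quantile normalization. Of all 11704 tested genes 4390 rose and 834 fell without scaling, and 2066 and 2126 with quantile normalization. The counts of this list thus depended on the processing. *Trf*, transferrin, had the largest gain of TPM of any gene, from 10673, 10358 and 10430.2 to 30603, 27174 and 33906 TPM (1.18 ± 0.15, adjusted p = 0.00079). *Hpx*, the heme carrier hemopexin, went from 4006, 4313 and 3506 to 15721, 11478 and 11863 TPM (1.35 ± 0.14).

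*Alb* fell from 69928, 83138 and 82747 to 55896, 61707 and 62811 TPM (-0.74 ± 0.18, adjusted p = 0.015), a call that was lost without scaling (-0.38, adjusted p = 0.057) and without LM193 (adjusted p = 0.056). *Ttr*, the thyroxine carrier transthyretin, fell (-1.13 ± 0.13), as did *Serpina6*, the corticosteroid carrier, from 742 ± 188 to 117 ± 32.6 TPM (-3.01 ± 0.24). Of the α1-antitrypsin copies, *Serpina1e* went from 1957, 1292 and 137 to 35.0, 22.7 and 25.2 TPM (-4.99 ± 0.85) and *Serpina1c* from 9623, 8771 and 7434 to 2871, 2911 and 2995 TPM (-1.91 ± 0.15), and the copies can share reads. The WT mouse LM193 had far less *Serpina1e* than the other WT mice. *Afp*, the fetal counterpart of albumin, rose to 6.85, 4.51 and 4.77 TPM from 0.659, 0.714 and 0.599 TPM (1.70 ± 0.15, adjusted p = 0.00012). Of the coagulation factors *F7* (-0.91 ± 0.12) and *F11* (-1.10 ± 0.23) fell without overlap, while the fibrinogen genes *Fga*, *Fgb* and *Fgg*, between 0.09 and 0.30, were not past the threshold and rose without scaling (adjusted p = 0.0053 for *Fga*).

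Of the acute-phase genes 16 of 24 were higher and 6 lower, beside 18.8 and 17.9 percent of all genes, and 18 and 3 without scaling, and their summed TPM went from 6182, 8655 and 7219 to 28349.7, 21126 and 23651. *Lcn2*, an iron-scavenging lipocalin, rose from 15.6, 42.6 and 15.4 to 1761, 906 and 1323 TPM (5.46 ± 0.36, adjusted p = 3.2e-05). *Orm2*, an orosomucoid, went from 45.2, 163 and 127 to 3401, 1716 and 2072 TPM (4.18 ± 0.42), and *Hp*, haptoglobin, from 1854, 3206 and 2629 to 13040.4, 11201 and 12036 TPM (1.91 ± 0.18). *Cd14*, the coreceptor for lipopolysaccharide, rose by 4.39 on the log2 scale. The serum amyloid genes did not move together, with *Saa1* (2.65 ± 0.24) and *Saa2* (2.82 ± 0.25) higher and *Saa4* (-1.38 ± 0.12) lower. *Crp*, C-reactive protein, fell (-0.73 ± 0.10).

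Complement genes summed to 9743, 12090.0 and 10839.7 TPM in WT and 16109, 14929 and 17266 TPM in YAPKO mice. Relative to the bulk of genes 8 of 22 rose and 6 fell, beside 18.8 and 17.9 percent of all tested genes, and 12 and 4 without scaling. *C6*, a component of the membrane attack complex, went from 13.7, 11.5 and 11.6 to 178, 155 and 162 TPM (3.30 ± 0.11, adjusted p = 1.4e-06), and *C3* rose (0.62 ± 0.18), a call lost without LM75, LM193, LM189 or LM191 (adjusted p = 0.06 to 0.1). The γ chain of another component, *C8g* (-1.53 ± 0.15), and the lectin *Mbl2* (-1.56 ± 0.19) fell.

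**Figure D3:**
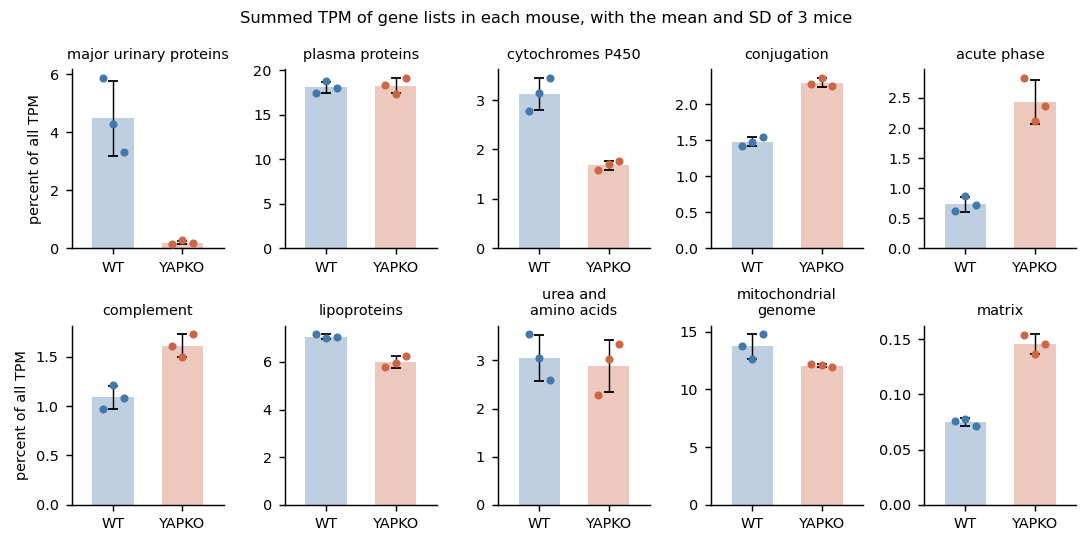
Summed TPM of 10 gene lists in each mouse as a percent of all TPM (y axis, linear, from 0), with bars for the mean and error bars for the SD of 3 mice. Major urinary proteins go from 4.49 to 0.198 percent on average and cytochromes P450 from 3.12 to 1.68 percent, acute-phase genes from 0.735 to 2.44 percent, and plasma proteins overlap.

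Within the urea cycle, *Cps1*, its rate-limiting enzyme, was at 1327, 1100.5 and 825 TPM in WT and 1157, 1346 and 1728 TPM in YAPKO mice and did not pass the test (0.03 ± 0.23, adjusted p = 0.94), like *Ass1* (-0.02 ± 0.30) and *Arg1* (-0.49 ± 0.33). *Otc*, which makes citrulline, fell from 207, 176 and 197 to 131, 139 and 135 TPM (-0.87 ± 0.12, adjusted p = 0.0011). *Glul*, the pericentral glutamine synthetase, fell from 597, 952 and 962 to 277, 410.4 and 433 TPM (-1.51 ± 0.25).

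Of the 43 genes of the urea cycle and amino acid metabolism 19 fell, 1, *Csad*, rose and 23 did not pass the test; without scaling 15 fell and 7 rose. Among those that fell without overlap were *Hpd* (-1.39 ± 0.18), of tyrosine breakdown, *Ahcy* (-1.50 ± 0.17) and *Gnmt* (-0.87 ± 0.20), of the methionine cycle, and *Shmt1* (-1.56 ± 0.15), which passes carbon to folate.

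Of the glucose genes 13 of 38 rose and 8 fell, and 20 and 4 without scaling. *Pkm*, pyruvate kinase of most tissues, rose from 9.21, 9.50 and 8.93 to 36.3, 28.2 and 25.7 TPM (1.25 ± 0.12, adjusted p = 0.00016), *Pygb*, brain glycogen phosphorylase, from 2.10, 2.82 and 2.43 to 44.6, 39.4 and 39.5 TPM (3.31 ± 0.11), and *Pfkp* by 1.86 and *Hk2* by 1.66 on the log2 scale. The liver forms *Pklr*, pyruvate kinase (-1.31 ± 0.34), and *Gys2*, glycogen synthase (-1.65 ± 0.17), fell, from 226 ± 118 to 106 ± 12.7 and from 159.8 ± 30.8 to 64.0 ± 7.41 TPM, and the call of *Pklr* was lost without LM74 (adjusted p = 0.063). *Pck1*, the rate-limiting enzyme of gluconeogenesis, was at 2129, 1475 and 2041 TPM in WT and 1344, 3134 and 2909 TPM in YAPKO mice and did not pass the test (-0.05 ± 0.36, adjusted p = 0.93). *G6pc*, the glucose 6-phosphatase, did not pass it either (0.31 ± 0.44). *Fbp1* fell (-0.62 ± 0.12), but not without scaling (-0.26, adjusted p = 0.06).

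Fatty acid oxidation genes were mostly lower: 26 of 32 genes fell and 1 rose, and 21 fell and 1 rose without scaling. *Cpt1a*, which admits fatty acids to the mitochondrion, went from 135, 159 and 146 to 95.4, 108 and 124 TPM (-0.78 ± 0.14, adjusted p = 0.0036). *Acsl1*, which activates them (-1.48 ± 0.15), and *Eci2*, which acts on unsaturated ones (-1.71 ± 0.16), also fell. *Pdk4*, which turns off pyruvate oxidation, was the member that rose, from 2.26, 2.74 and 3.71 to 22.8, 44.7 and 24.1 TPM (2.66 ± 0.28).

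Of the genes of lipid synthesis and storage 5 of 31 rose and 11 fell, against 8 and 9 without scaling. *Fabp1*, the liver fatty acid carrier, went from 6267, 8346 and 12239 to 1860.4, 1904 and 1411 TPM (-2.69 ± 0.24, adjusted p = 0.00011) and *Thrsp*, a lipogenic factor, from 465, 876 and 874 to 49.0, 158 and 139 TPM (-3.13 ± 0.46). The regulators *Srebf1* (-1.10 ± 0.15) and *Mlxipl* (-1.13 ± 0.16) and the triglyceride synthase *Dgat2* (-1.51 ± 0.17) fell as well. *Fasn*, fatty acid synthase, was at 133 ± 51.2 and 154 ± 31.6 TPM and did not pass the test (-0.10 ± 0.27). *Scd2*, a desaturase of extrahepatic tissues, rose from 2.40, 3.57 and 2.53 to 98.1, 72.5 and 36.7 TPM (3.79 ± 0.30), and *Scd1* (1.04 ± 0.24), the receptor *Cd36* (1.63 ± 0.21) and *Pparg* (1.13 ± 0.21) rose with it.

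Of the lipoprotein genes 5 of 24 rose and 10 fell, against 7 and 8 without scaling. *Lpl*, lipoprotein lipase, which adult hepatocytes hardly express, went from 5.80, 6.59 and 5.41 to 250.1, 182 and 135 TPM (4.40 ± 0.18, adjusted p = 2.9e-06). Its activator *Apoc2* rose (1.22 ± 0.12) and its inhibitor *Apoc3* fell (-1.09 ± 0.14), from 3639 ± 380.2 to 2193 ± 158 TPM. *Apoa2* fell from 20039, 18578 and 20989 to 10397, 9973 and 9500.0 TPM (-1.36 ± 0.14), while *Apoa1* (-0.04 ± 0.16), *Apob* (0.05 ± 0.10) and *Apoe* (-0.35 ± 0.17) were not past the threshold, though *Apob* rose without scaling (0.41, adjusted p = 0.0077). Cholesterol synthesis had 1 rise and 5 falls among 24 genes, beside 18.8 and 17.9 percent of all tested genes, but 7 rises and 4 falls without scaling.

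Respiratory chain subunits encoded in the nucleus lay in a narrow band. Of 76 genes 66 fell and 0 rose relative to the bulk of genes, with a median log2 fold change of -0.50. Their summed TPM was 20984, 19552 and 19739 in WT and 18168, 18403 and 17750.1 in YAPKO mice. Without scaling 19 fell, with a median of -0.14, and with quantile normalization 26. The largest falls were in subunits of complex I, *Ndufb3* (-0.97 ± 0.13) and *Ndufa5* (-0.96 ± 0.094). Citric acid cycle genes counted 0 rises and 7 falls of 18, 6 and 3 without scaling and 2 and 5 with quantile normalization. Without scaling 4390 of all 11704 tested genes rose and 834 fell. The median log2 fold change in that fit was 0.04 for the list and 0.28 for all tested genes.

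Of the genes of the growth hormone axis 8 of 18 fell and 3 rose, against 8 and 5 without scaling. *Ghr*, the receptor, fell from 187, 193 and 176 to 87.5, 109 and 92.4 TPM (-1.30 ± 0.13, adjusted p = 0.00025), *Igf1* from 137, 136 and 146 to 86.4, 78.5 and 85.1 TPM (-1.10 ± 0.093) and *Igfals*, the stabilizing subunit of circulating IGF, from 125, 156 and 151 to 25.4, 37.7 and 36.5 TPM (-2.45 ± 0.19). *Igfbp1*, a binding protein of fasting and injury, rose from 95.8, 31.4 and 79.7 to 1021, 2476 and 873 TPM (4.01 ± 0.51). *Socs2* (-0.19 ± 0.37) and *Cish* (-0.10 ± 0.27), targets of STAT5, and *Stat5b* (0.39 ± 0.19) were not past the threshold, though *Stat5b* rose without scaling (0.74, adjusted p = 0.01) and without LM75 (adjusted p = 0.038).

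Hepatocytes near the central vein and near the portal tract carry different enzymes. Of 20 pericentral genes 13 fell and 2 rose, with a median of -0.89; of 20 periportal genes 9 fell and 3 rose, with a median of -0.47. Without scaling 8 and 3 fell and 3 and 3 rose, and the difference between the zones was not tested. The glutamate carrier *Slc1a2* fell from 38.4, 59.1 and 64.8 to 7.99, 13.6 and 18.4 TPM (-2.32 ± 0.31). The Wnt targets *Axin2* (-0.48 ± 0.19) and *Tcf7* (-0.44 ± 0.18) were not past the threshold (both fell with quantile normalization, and *Axin2* without LM191 (adjusted p = 0.043)), and *Sp5* (-1.14 ± 0.15) and *Nkd1* (-1.01 ± 0.21) fell.

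Genes of the oxidative stress response that NRF2 controls counted 13 rises and 6 falls of 26, and 18 and 3 without scaling. *Gpx3* (3.48 ± 0.24) and *Gpx2* (2.95 ± 0.23), glutathione peroxidases of plasma and gut, rose, *Gpx2* from 0.321, 0.696 and 0.106 to 8.82, 12.1 and 12.6 TPM. *Srxn1* (1.91 ± 0.25), *Nqo1* (1.41 ± 0.14) and *Hmox1*, heme oxygenase (1.39 ± 0.10), rose as well. *Gclc* (0.41 ± 0.20) and *Gclm* (0.29 ± 0.11), which make glutathione, were not past the threshold but rose without scaling (0.76, adjusted p = 0.016 and 0.64, adjusted p = 0.0012), *Gclc* also without LM191 (adjusted p = 0.042), and *Sod1* (-0.84 ± 0.12), *Sod2* (-0.78 ± 0.12) and *Cat* (-0.72 ± 0.12) fell.

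In iron handling 7 of 21 genes rose and 3 fell, against 11 and 1 without scaling. *Hamp2*, a copy of the gene of hepcidin, fell from 1304, 1270.0 and 1312 to 30.7, 25.2 and 23.9 TPM (-5.91 ± 0.10, adjusted p = 6.6e-08) and *Hamp* from 3308, 2510.2 and 1580.3 to 2146, 1578 and 1331 TPM (-0.87 ± 0.27), with overlap, and the copies can share reads. The call of *Hamp* was lost without scaling and without LM75, LM192, LM189 or LM191 (adjusted p = 0.082 to 0.11). *Bmp6*, the inducer of hepcidin, rose from 3.15, 2.26 and 2.13 to 18.6, 14.8 and 24.5 TPM (2.21 ± 0.21).

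Targets of p53 rose in 9 of 19 tested genes and fell in 0, and 13 rose without scaling. *Cdkn1a*, the cyclin-dependent kinase inhibitor p21, went from 1.55, 0.702 and 0.875 to 28.9, 121 and 33.5 TPM (4.37 ± 0.51, adjusted p = 0.00048). *Gadd45g*, a stress sensor, also rose (3.01 ± 0.49), and *Ccng1* (0.10 ± 0.094), which rose without scaling (0.44, adjusted p = 0.0087), and *Perp* (-0.08 ± 0.12) were not past the threshold. Of the unfolded protein and ATF4 responses, 4 of 17 genes rose and 2 fell, beside 18.8 and 17.9 percent of all tested genes, and 6 and 0 without scaling. *Asns*, asparagine synthetase, rose from 0.233, 0.39 and 0.231 to 8.73, 5.04 and 5.88 TPM (2.33 ± 0.17), and the chaperone *Hspa5* did not pass the test (0.07 ± 0.27).

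Genes of the G2 and M phases were low in both groups and higher in YAPKO livers in 18 of 21 tested genes (21 without scaling), beside 18.8 percent of all tested genes. A further 13 stayed below the minimum level. The filter favored rises here, since a gene such as *Mki67*, under 1 TPM in every WT mouse, was tested through its YAPKO values alone. *Mki67*, the proliferation marker, was at 0.476, 0.506 and 0.27 TPM in WT and 5.02, 2.51 and 2.07 TPM in YAPKO mice (1.32 ± 0.23, adjusted p = 0.0032), and *Cdc20* rose by 1.75 on the log2 scale. The whole list summed to 128, 69.8 and 57.5 TPM in the YAPKO mice, highest in LM74, against 20.9, 14.2 and 13.7 TPM in WT. In the S phase list 8 of 26 rose and 3 fell, and 14 and 3 without scaling. The helicase subunits *Mcm6* (1.47 ± 0.20) and *Mcm2* (0.97 ± 0.24) rose, whereas *Mcm10*, which helps to start replication, fell from 19.0, 18.9 and 18.6 to 2.87, 2.65 and 3.74 TPM (-2.59 ± 0.14) and *Tk1*, thymidine kinase, from 56.6, 49.0 and 49.9 to 18.0, 13.6 and 18.3 TPM (-1.94 ± 0.13).

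Immediate early genes, which respond within minutes to growth signals and stress, had the highest median of the lists, 2.45, with 15 of 18 higher and 0 lower, and 17 and 0 without scaling. They also spread widely among the YAPKO mice. *Fos* was at 19.8, 189 and 81.1 TPM in LM74, LM189 and LM191 against 2.60, 2.36 and 2.20 TPM in WT mice (4.04 ± 0.70, adjusted p = 0.003), and *Jun* at 51.2, 533 and 314 against 9.05, 9.01 and 11.5 TPM (3.91 ± 0.76). *Egr1* (3.82 ± 0.79), *Atf3* (3.92 ± 0.67) and *Btg2* (3.86 ± 0.75) had the same order, highest in LM189 and lowest in LM74, and none of these calls was lost without LM189. The summed TPM of the list was 895, 5265 and 2639 in the YAPKO mice and 345, 318 and 317 in WT mice, so the lowest YAPKO mouse still lay above all WT mice. *Gdf15*, a stress hormone, followed the same order at 21.0, 361 and 93.1 TPM (3.20 ± 0.87), and its call was lost without LM75, LM192 or LM191 (adjusted p = 0.053 to 0.06) and with the robust estimate (adjusted p = 0.0752).

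Circadian clock genes also moved, 3 of 17 up and 10 down, and 3 and 8 without scaling. *Arntl* (BMAL1), of the positive arm, rose from 1.51, 0.48 and 0.44 to 16.0, 21.5 and 8.51 TPM (2.89 ± 0.35, adjusted p = 0.00056). The D-box activators *Dbp*, from 182, 189 and 199 to 10.4, 2.05 and 48.0 TPM (-4.33 ± 0.81), *Tef* (-2.44 ± 0.40) and *Hlf* (-1.51 ± 0.20) fell, and so did *Per3* (-3.09 ± 0.39), *Ciart* (-2.95 ± 0.61) and *Per2* (-2.18 ± 0.46). *Per1* (-0.36 ± 0.54) and *Nr1d1* (-0.46 ± 0.54), at 48.4, 32.0 and 118 TPM in the YAPKO mice, overlapped with WT. The hour at which each liver was taken is not given in the sources used here.

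As an example of a clock-controlled promoter whose gene fell, the 250 bases before the start of *Per3* (chr4:151044666-151044915, minus strand, GRCm38.p6) hold the D-box letters TTATGNAA, where N is any base, at 205 and 158 bases before it (capitals). They were found on either strand in the windows of 4.25 percent of the genes that fell, 2.35 percent of those that rose and 2.29 percent of the other tested genes.
Per3: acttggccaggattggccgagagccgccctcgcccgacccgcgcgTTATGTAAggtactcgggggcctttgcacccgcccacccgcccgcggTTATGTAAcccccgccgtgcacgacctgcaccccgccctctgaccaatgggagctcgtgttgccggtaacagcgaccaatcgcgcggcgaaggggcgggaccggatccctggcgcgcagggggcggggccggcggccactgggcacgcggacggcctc

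**Figure D4:**
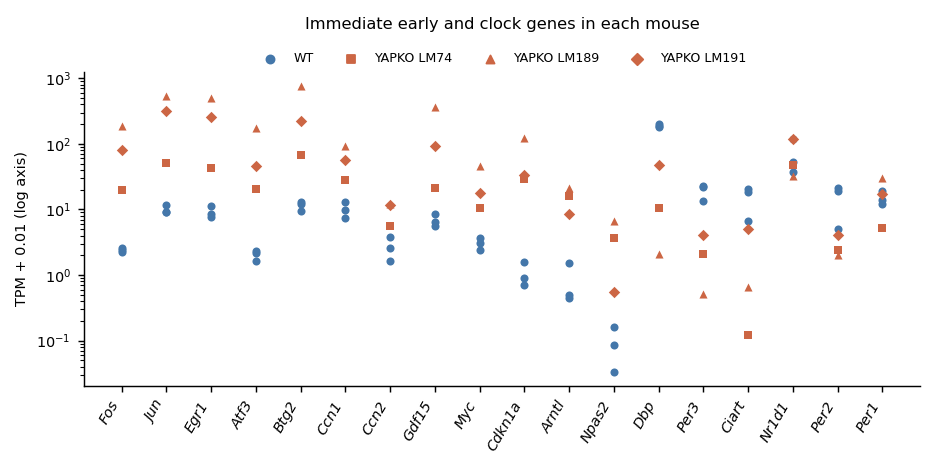
TPM + 0.01 (y axis, log scale) of immediate early, stress and clock genes in each mouse; blue circles are WT mice and orange symbols are the YAPKO mice LM74 (square), LM189 (triangle) and LM191 (diamond). *Fos*, *Jun*, *Egr1*, *Atf3* and *Gdf15* are highest in LM189 and lowest in LM74 among YAPKO mice, and *Dbp* and *Per3* lie below all WT mice.

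Epithelial junction and keratin genes rose in 14 of 26 and fell in 3, against 18 and 0 without scaling. *Krt8* went from 174, 200.3 and 157 to 1550.1, 1563 and 1335 TPM (2.70 ± 0.12, adjusted p = 4.5e-06) and its partner *Krt18* rose alike (2.50 ± 0.11). *Cdh1*, E-cadherin, rose from 14.2, 12.3 and 11.9 to 94.8, 71.9 and 80.3 TPM (2.25 ± 0.12), with *Tjp3* (2.22 ± 0.20), *Cldn1* (1.59 ± 0.38) and *Ocln* (1.28 ± 0.29) of the tight junction. The gap junction gene *Gjb1* fell (-0.53 ± 0.12), with overlap and not without scaling (-0.18, adjusted p = 0.19).

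Markers of bile duct cells did not move together. *Spp1*, osteopontin, rose from 44.9, 49.0 and 26.0 to 725, 303 and 323 TPM (3.04 ± 0.33), *Sox9*, a factor of duct cells and of hepatocytes near them, from 1.6005, 1.72 and 1.40 to 12.5, 15.9 and 9.37 TPM (2.10 ± 0.19, adjusted p = 0.00013), and *Prom1* (2.39 ± 0.20), *Cldn7* (2.82 ± 0.20) and *Bicc1* (1.71 ± 0.25) rose with them. *Krt19*, a defining keratin of bile ducts, was at 1.59, 1.08 and 0.216 TPM in WT and 1.13, 3.15 and 0.608 TPM in YAPKO mice (0.20 ± 0.40, adjusted p = 0.74), and *Epcam* at 0.624, 2.46 and 1.03 TPM in WT and 2.14, 0.545 and 0.679 TPM in YAPKO mice, both overlapping. *Krt7*, *Cftr* and *Sctr* were among the 6 of 18 markers below the minimum level. Of all 18 markers 9 lay above WT and 2 below without overlap in deposited TPM, but 8 and 0 of the 12 tested. Beside these stand 47.5 and 9.29 percent of all tested genes. The filter favored rises among markers so low in WT. In all 7 of 12 tested markers rose (8 without scaling), and the list summed to 86.6, 94.6 and 63.6 TPM in WT and 903, 457 and 459 TPM in YAPKO mice, highest in LM74. Most of that sum in YAPKO mice was *Spp1*, which cells outside the ducts can express too, and the other markers summed to 41.6, 45.7 and 37.6 TPM in WT and 178, 154 and 136 TPM in YAPKO mice. Of the Notch pathway, which specifies these cells, 2 of 11 tested genes rose and 0 fell (3 and 0 without scaling), beside 18.8 and 17.9 percent of all genes, with a median log2 fold change of -0.08. *Hes1* (0.93 ± 0.20) and *Notch2* (0.49 ± 0.11) rose and *Jag1* (-0.21 ± 0.21) was not past the threshold.

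Extracellular matrix genes rose in 25 of 34 tested genes and fell in 0, against 28 and 0 without scaling. *Col1a1*, the main fibrillar collagen of scar, went from 2.50, 4.67 and 1.76 to 73.1, 86.6 and 67.1 TPM (4.02 ± 0.25, adjusted p = 2.3e-05), *Col3a1* rose by 2.62 and *Nid1*, a basement membrane link, by 3.30 on the log2 scale. *Fn1*, fibronectin, which hepatocytes secrete, was at 347 ± 10.2 and 389 ± 83.7 TPM and did not pass the test (-0.22 ± 0.15). Matrix enzymes, their inhibitors and growth factors of fibrosis rose in 27 of 30, and in 28 without scaling: *Timp1* from 0.514, 0.239 and 0.383 to 20.6, 14.1 and 11.2 TPM (3.30 ± 0.20), the crosslinking enzyme *Tgm2* by 2.09, and *Mmp2* by 2.36 on the log2 scale.

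Of the stellate cell and fibroblast markers 8 of 19 rose and 4 fell, against 12 and 2 without scaling. *Lum* (2.41 ± 0.14), *Pdgfrb* (1.85 ± 0.15) and *Cygb* (1.42 ± 0.22) rose. *Acta2*, smooth muscle actin of activated cells, was at 1.71, 5.26 and 0.877 TPM in WT and 5.04, 5.19 and 2.52 TPM in YAPKO mice and did not pass the test (0.42 ± 0.42, adjusted p = 0.47). *Lrat*, which stores vitamin A in quiescent cells (-0.84 ± 0.19), and *Ecm1* (-1.53 ± 0.092) fell, *Lrat* not without scaling (-0.53, adjusted p = 0.06).

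Macrophage markers were higher. Of the Kupffer cell list 11 of 13 rose and 1 fell, with and without scaling, summing to 554, 502 and 432 TPM in WT and 1648, 1394 and 1151 TPM in YAPKO mice. *Adgre1* (F4/80) went from 9.23, 7.11 and 6.68 to 31.6, 22.5 and 17.7 TPM (1.16 ± 0.20, adjusted p = 0.0027), *Clec4f*, a marker of Kupffer cells alone, from 83.9, 77.1 and 71.4 to 168, 143 and 121 TPM (0.52 ± 0.12), a call lost without LM193 (adjusted p = 0.052), and *Marco* rose most (2.71 ± 0.14). *Timd4*, of resident cells, was at 7.51, 4.78 and 4.43 TPM in WT and 7.90, 6.14 and 3.04 TPM in YAPKO mice and did not pass the test, and *Cd163*, the hemoglobin scavenger receptor, fell from 5.29, 6.40 and 5.96 to 3.06, 1.21 and 1.40 TPM (-1.58 ± 0.20).

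Markers of monocyte-derived and lipid-associated macrophages rose in 13 of 14, with and without scaling. *Trem2* went from 0.699, 1.21 and 0.396 to 25.5, 14.8 and 20.4 TPM (3.33 ± 0.22), *Gpnmb* from 0.0743, 0.023 and 0.0491 to 13.1, 4.67 and 7.64 TPM (2.91 ± 0.27) and *Cd9* from 22.1, 20.8 and 27.8 to 273, 329.9 and 293 TPM (3.26 ± 0.15). Chemokine and adhesion genes rose in 12 of 28 and fell in 1, against 16 and 1 without scaling: *Ccl2*, which recruits monocytes, by 2.68, *Cxcl1*, which recruits neutrophils, by 4.03 and *Cxcl14* by 4.43 on the log2 scale, whereas *Cxcl12* fell (-0.96 ± 0.13). Neutrophil markers were low, with 4 of 5 tested genes higher with and without scaling, such as *S100a9* at 23.4, 25.0 and 34.5 against 5.03, 4.47 and 6.72 TPM. The other 5 markers of this list stayed below the minimum level, and the filter favored rises among genes so low in WT.

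Of the antigen presentation genes 6 of 18 rose and 2 fell, against 10 and 0 without scaling. The class II genes *H2-Aa* (1.54 ± 0.20), *H2-Ab1* (1.48 ± 0.20) and *Cd74* (1.55 ± 0.16) rose, *Cd74* from 144, 144 and 113 to 571, 549 and 398 TPM. Of class I, *H2-D1* (0.21 ± 0.12) and *B2m* (-0.26 ± 0.12) were not past the threshold, and *H2-K1* fell (-0.42 ± 0.13) with overlapping TPM. Without scaling *H2-D1* rose (0.56, adjusted p = 0.0028) and *H2-K1* lost its call, as it did without LM75, LM192, LM193, LM74 or LM191 (adjusted p = 0.069 to 0.11). Of the interferon-stimulated genes 3 of 28 were higher and 2 lower, beside 36.7 percent of all tested genes in either direction, and 6 and 1 without scaling. *Oasl1* rose (1.55 ± 0.15), and *Isg15* at 28.0, 52.97 and 18.2 against 34.2, 43.0 and 22.1 TPM did not pass the test. Of the T and NK cell markers 5 of 15 reached the minimum level and 0 passed the limma test with or without scaling. With scaling 0 of them had an unadjusted p under 0.05. Their summed TPM was 12.9, 10.04 and 7.72 in WT and 12.5, 24.9 and 8.11 in YAPKO mice. Of the B and plasma cell markers 3 of 8 reached the minimum level and 0 passed with or without scaling. With scaling 1 had an unadjusted p under 0.05, and their summed TPM was 5.58, 24.4 and 11.8 in WT and 15.6, 25.2 and 18.3 in YAPKO mice.

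Of 22 endothelial markers 1, *Vwf* (0.90 ± 0.19), rose and 6 fell, *Kdr* the most (-0.95 ± 0.15), while *Stab2*, the sinusoidal scavenger receptor, was at 10.2, 10.3 and 9.09 TPM in WT and 18.2, 9.03 and 11.4 TPM in YAPKO mice and did not pass the test. Without scaling 4 rose and 3 fell. Hepatocyte markers included 3 falls, *Asgr1*, *Alb* and *Ttr*, and 0 rises among 12, against 2 and 1 without scaling, and summed to 103808, 117503 and 113900.0 TPM in WT and 91141, 95877 and 100934 TPM in YAPKO mice. The hemoglobin genes *Hba-a1* (0.02 ± 0.25) and *Hbb-bs* (0.06 ± 0.21) overlapped. Pancreatic acinar genes summed to 1.94, 72.9 and 1.72 TPM in WT and 2.06, 107 and 32.1 TPM in YAPKO mice, so they were high in LM192, LM189 and LM191 and low in the others of both groups. Rises among the duct, macrophage and matrix genes and falls of 3 hepatocyte markers thus stood beside the changes of the other lists, and their part in those changes was not tested.

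Over all genes, the largest rises were in *Cib3* (7.17 ± 0.19), *Ly6d* (7.04 ± 0.27), *Gm3776* (6.88 ± 0.41), *Sprr1a* (5.99 ± 0.27), *Gsta1*, *Gipc2* (5.48 ± 0.16), *Lcn2*, *Slpi* (5.36 ± 0.37), *Gstm3* and *Ubd* (5.21 ± 0.30). *Sprr1a*, a cornified envelope protein, was at 0, 0 and 0.14 TPM in WT and 97.3, 95.4 and 44.8 TPM in YAPKO mice. *Ly6d*, a membrane protein of lymphoid and epithelial precursors, was at 2.30, 3.14 and 6.39 TPM in WT and 732, 862 and 707 TPM in YAPKO mice. *Slpi*, a protease inhibitor of mucosal epithelia, was at 0.87, 3.86 and 1.34 TPM and 104, 135 and 186 TPM. *Ubd*, a ubiquitin-like modifier, was at 0.245, 1.03 and 0.608 TPM and 86.0, 90.3 and 41.4 TPM. None of these 10 genes is on the marker lists of cell types, and *Gm3776* and *Gsta1* are near-identical copies that can share reads.

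The 10 largest falls were confined to major urinary protein, cytochrome P450 and sulfotransferase genes: *Mup18* (-10.27 ± 0.25), *Mup19* (-10.24 ± 0.53), *Mup22* (-9.91 ± 0.32), *Cyp3a41a*, *Mup16* (-8.99 ± 0.33), *Mup11* (-8.48 ± 0.62), *Mup15* (-8.48 ± 0.79), *Cyp2c69*, *Cyp3a44* and *Sult3a1*. In TPM the largest gains were in *Trf*, *Hp*, *Hpx*, *Cyp3a11*, *Clu*, *Gstm1*, *Ftl1*, *Gstm3*, *C3* and *Ahsg*. *Clu*, the extracellular chaperone clusterin, went from 871, 937 and 955 to 6764, 5130.0 and 5635 TPM (2.30 ± 0.11, adjusted p = 6.6e-06), but *Ftl1*, ferritin light chain (0.26 ± 0.15), and *Ahsg* (-0.02 ± 0.14) did not pass the test relative to the bulk of genes, although *Ftl1* rose without scaling (0.62, adjusted p = 0.0024) and without LM74 (adjusted p = 0.044). The largest losses were in *Mup22*, *Alb*, *Apoa2*, *Fabp1*, *Cyp2e1*, *Serpina1c*, *Mup3*, *Mup19*, *mt-Atp6* (-0.67 ± 0.15) and *mt-Co3* (-0.65 ± 0.15), and the calls of the last pair were lost without scaling (-0.31, adjusted p = 0.06 and -0.29, adjusted p = 0.079).

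Among genes with a mean of at least 1 TPM, those that spread most within the YAPKO group on the log2 scale were *Gm9803*, *Gm49342*, *Ctrb1*, *Mfsd2a*, *Gdf15*, *Dbp*, *Nr4a1*, *Egr1*, *Abhd1* and *Jun*. *Mfsd2a*, a carrier of lysophospholipids, was at 5.73, 125 and 94.1 TPM against 42.5, 54.8 and 67.8 TPM in WT mice, lowest in LM74, and without LM74 it rose (adjusted p = 0.045). *Abhd1* was at 42.3, 2.86 and 35.3 TPM against 3.46, 3.14 and 3.601 TPM, near the WT mice in LM189 and above them in the other YAPKO mice, and it rose without LM189 (adjusted p = 3.6e-05). *Nr4a1*, an immediate early receptor, was at 10.8, 147 and 23.6 TPM and highest in LM189, and its call was lost without LM192, LM193, LM189 or LM191 (adjusted p = 0.054 to 0.1) and with the robust estimate (adjusted p = 0.103). *Gm9803* was at 2.43, 29.0 and 43.8 TPM in WT and 0, 40.7 and 12.7 TPM in YAPKO mice. *Gm49342* was at 9.58, 0 and 0 TPM in WT and 0, 18.8 and 29.4 TPM in YAPKO mice, so both were listed at 0 in LM74. *Ctrb1*, an acinar gene, was at 0, 21.3 and 0.258 TPM in WT and 0, 35.8 and 8.61 TPM in YAPKO mice.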

How the data were processed

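Whole-liver RNA of 3 YAPKO and 3 WT mice was sequenced. The authors used CLC Genomics Workbench with the genome GRCm38.p6 and deposited TPM per gene and mouse, with no counts, so depth is unknown. Their processing notes also name edgeR, used for columns of fold changes and p-values between the groups, which were not used here. The table of mixed-background mice was not used here.

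TPM were scaled by a trimmed mean of log ratios (30 percent of ratios and 5 percent of levels trimmed at each end). Genes that reached 1 TPM in 3 or more mice were tested on log2(scaled TPM + 1) with limma 3.58.1 (R 4.3.3, group as the only term, two-sided), adjusted by Benjamini-Hochberg, at 0.05. The script was tested on simulated data in which few genes changed, equally often up and down. That test does not show how the scaling behaves where many genes change. Near copies were found with blastn 2.17.0 (at least 90 percent identity over at least 30 percent of length). Of 1212 genes compared 134 had such a copy, and their single values are uncertain, also where the text on a gene does not say so. Promoters are from RefSeq, in GRCm38.p6, for 27025 genes, and their letters were searched on both strands.

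The 40 function lists and 11 marker lists were written from textbook functions with earlier results of these data known. A further 3 lists were added after values were seen, so no test of a list is reported. Genes were named by rule (*Yap1*, *Wwtr1* and the TEAD genes, at most 6 per list by largest change, highest level or textbook role, and the 10 largest rises, falls, gains, losses and spreads). Other named genes were chosen after their values were seen. The 14 other fits are given in the closing section. Some genes of these lists are not reported here.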

Additional observations from a re-analysis of the deposited data

How the results depend on the processing

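Against 2202 genes higher in YAPKO than WT and 2093 genes lower in YAPKO than WT, the fit gave 4390 and 834 without scaling, 2066 and 2126 with quantile normalization, 2177 and 2070 with a pseudocount of 0.1, 2318 and 1961 with no filter on low values, and 1569 and 1888 at a minimum of 5 TPM. An adjusted p under 0.01 left 1380 and 1121, and a change over 2-fold 931 and 484. Leaving out each mouse in turn gave 1443 (without LM189) to 2091 (without LM75) genes higher and 1437 (without LM193) to 1874 (without LM75) lower, in fits of 5 mice. No paired analysis was made, because the labels do not say which mice share a litter. A block for near animal numbers (LM74 with LM75 against the other 4 mice) gave 2309 and 2300, and limma gave 2194 and 2110 with a robust estimate of the spread and 2224 and 2018 without a trend of spread on level.

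Of the 297 named genes 237 passed the threshold and 210 did so in every setting that fitted them. Fits without a YAPKO mouse tested 281 of the 297 and those without a WT mouse 289 to 291, since 1 TPM in 3 mice was still required. Genes not tested there, such as *Mki67*, *Gpnmb* and *Afp* without a YAPKO mouse, could not lose their call. Of the 237 genes past the threshold, 19 lost their call without 1 or more of the mice. With no filter on low values *Alb*, *Amotl2*, *C3*, *Ccn2*, *Cyp3a59*, *Foxa3*, *H2-K1*, *Hamp*, *Nf2*, *Nr4a1*, *mt-Atp6*, *mt-Co3* and *mt-Cytb* lost their calls, with quantile normalization *Alb*, *Cyp27a1*, *Fbp1*, *Gjb1*, *Gnmt*, *H2-K1*, *Hamp*, *mt-Atp6* and *mt-Co3*, with the robust estimate *Cyp8b1*, *Gdf15* and *Nr4a1*, and without the trend *Cyp2j6* and *Nf2*. Quantile normalization gives each rank the same value in every mouse, so *Alb*, the most abundant in each, was bound to lose its call there. For the same reason it can show little change in other genes of the highest ranks, such as *mt-Atp6* and *mt-Co3*. *Tead2*, not past the threshold, fell with quantile normalization (-0.79). Of the genes past the threshold 3 changed sign, *H2-K1* (0.022), *mt-Atp6* (0.017) and *mt-Co3* (0.046) with quantile normalization. *Baat*, to 0.28 without scaling and 0.26 with quantile normalization, and *Mfsd2a*, to 0.69 without LM74 (but -1.49 without LM189), passed with a changed sign, and 30 other genes not past the threshold lay on either side of 0 in 1 or more settings, with no call on the changed side. The cause of these changes was not tested. With TPM and no counts, 3 mice per group and whole tissue, the data do not show depth, small changes of rare transcripts or the cell type of a change.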

Other observations

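Genes that the liver of female mice expresses more than that of males were set out as a list after the values were seen, so their counts are a description. All 6 mice were female. Of 22 tested genes 21 fell in YAPKO livers and 1, *Ntrk2*, rose, beside 17.9 and 18.8 percent of all tested genes, and without scaling 20 fell and 1 rose. The summed TPM of the list was 8306, 10096 and 10445 in WT and 299, 794 and 912 in YAPKO mice. *A1bg*, a plasma glycoprotein, went from 1168, 347 and 306 to 6.39, 12.9 and 6.64 TPM (-6.10 ± 0.51, adjusted p = 9.3e-05) and *Hao2*, a hydroxyacid oxidase, from 26.1, 19.6 and 31.5 to 1.12, 0.359 and 0 TPM (-4.44 ± 0.27). *Prlr*, the prolactin receptor, fell from 55.2, 57.5 and 54.2 to 20.3, 24.8 and 21.6 TPM (-1.64 ± 0.13). The regulator *Cux2* overlapped between the groups, at 17.2, 5.80 and 14.8 TPM in WT and 2.59, 2.55 and 6.23 TPM in YAPKO mice (-1.77 ± 0.43, adjusted p = 0.014), a call lost without LM193 or LM74 (adjusted p = 0.0503 to 0.0504). Of the 22 genes 13 have near-identical copies.

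Genes that males express more did not move as the mirror image: 6 of 16 rose and 8 fell, with the same counts without scaling. *Mup20*, *C6*, *Cyp2d9*, *Gstp1*, *Cyp4a12b* and *C8a* rose, *C8a* from 94.0, 138 and 109 to 338, 269.9 and 282 TPM (1.03 ± 0.13). *Hsd3b5*, a steroid dehydrogenase, fell from 25.3, 10.9 and 7.46 to 0, 0.297 and 0.0687 TPM (-3.81 ± 0.39), *Ugt2b1*, a glucuronosyltransferase, from 243, 232 and 237 to 39.3, 31.3 and 35.6 TPM (-3.07 ± 0.10), and *Serpina3k*, a protease inhibitor of plasma, from 5739.9, 4295 and 4014 to 1187, 1285 and 1827 TPM (-2.08 ± 0.23). *Susd4*, a complement inhibitor, fell from 5.77, 6.49 and 4.73 to 0.0659, 0.167 and 0.0276 TPM (-2.77 ± 0.16). Summed TPM was 9083, 6820.3 and 5341 in WT and 5459, 6794 and 6380.2 in YAPKO mice, which overlapped.

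The 13 protein genes of the mitochondrial genome summed to 137167, 126577 and 147608 TPM in WT and 122110.0, 120852 and 118962 TPM in YAPKO mice, without overlap. Relative to the bulk of genes 9 fell and 0 rose, but 2 fell without scaling and 2 with quantile normalization, which can show little change in genes of the highest ranks. *mt-Cytb*, of complex III, was at 12393, 12213 and 13353 TPM in WT and 8066, 10072 and 9983 TPM in YAPKO mice (-0.80 ± 0.17), and *mt-Nd1*, of complex I, at 9878, 9232 and 11081 and 12033, 10853 and 10271 TPM (-0.22 ± 0.14), which did not pass the test.

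Among the promoters searched, AP-1 letters (TGANTCA) were found on either strand in 8.29 percent of the genes that rose, 6.46 percent of those that fell and 4.73 percent of the other tested genes. E-box letters (CACGTG) were found in 8.17, 9.93 and 10.5 percent. These shares are a description of windows of 250 bases.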
